A study of Saccharomyces cerevisiae with 12 samples.

Results

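The 31 genes described here encode the subunits of the 3 nuclear RNA polymerases of the yeast *Saccharomyces cerevisiae*. They were taken by their gene symbols in the probe annotation of the arrays and grouped by the enzyme that they build. Of the 31 genes, 30 had an array element, and each of the 30 had 1 element among the 6024 of the table, while *RPC10* was not analysed here. The 30 are 7 genes of Pol I, 7 of Pol II, 10 of Pol III, 2 whose products are shared by Pol I and Pol III, and 4 whose products are part of all 3 enzymes. The 12 arrays cover WT and 3 deletion strains, named Δ*gcn2*, Δ*gcn4*, and Δ*ire1* for the gene that each lacks. All were haploid descendants of one parent strain with mutant alleles of *URA3*, *LEU2*, *HIS3*, *TRP1*, *ADE2*, and *CAN1*, and each genotype was 1 strain. The deletion strains also differed from WT in a selection marker, *TRP1* in Δ*ire1* and *his5+* in Δ*gcn4* and Δ*gcn2*. Midlog cultures in rich medium (YPD) received 2 mM DTT for 30 min, and the mRNA of these cells was hybridized with that of an untreated culture of the same genotype to a 2-color spotted array, with 3 arrays per strain.

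DTT is a reducing agent that disturbs protein folding in the ER and thereby activates the unfolded protein response (UPR). Ire1p is the ER sensor that starts this response, Gcn4p is a transcription factor best known for activating amino acid synthesis genes, and Gcn2p is the kinase that raises the translation of *GCN4* mRNA. Pol I makes the precursor of the large ribosomal RNAs, Pol II makes mRNAs, and Pol III makes tRNAs and the smallest ribosomal RNA. The enzymes share a common architecture, in which the largest and the second subunit form the active center, a pair of smaller subunits forms an assembly platform, another pair forms a stalk, and small subunits common to all enzymes complete the core. In growing yeast, Pol I and Pol III serve mainly the production of ribosomes and tRNAs, and both are known to be turned down in many kinds of stress.

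Values are deposited log2 ratios, treated over untreated, so that 0 is no change and −1 is a fall to 0.5 times the untreated level. A gene was called higher or lower where its strain mean differed from 0 in limma at an adjusted p under 0.05, with the Benjamini-Hochberg adjustment taken over all 6024 elements. The median of an array over all elements lay between −0.21 and −0.06, and the medians of all elements are therefore given beside those of the members. The correlation between arrays of a strain over all elements lay between 0.64 and 0.94. Of 6 UPR target genes used to check the labels, all 6 rose in WT, Δ*gcn4*, and Δ*gcn2*. In Δ*ire1* 2 rose and 1 fell. The medians were 1.96, 1.66, 1.63, and 0.16, and 18.4%, 15.8%, 25.2%, and 12.2% of all elements rose. These counts set Δ*ire1* apart and do not tell the labels of WT, Δ*gcn4*, and Δ*gcn2* from each other. The arrays compare the mRNA pools of whole cultures, so a smaller share of the pool and fewer transcripts per cell cannot be told apart.

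Most of the polymerase genes fell after DTT in every strain. In WT, 25 of the 30 were lower and 1 was higher, against 39.0% and 18.4% of all elements. In Δ*ire1*, 25 were lower and 0 were higher, against 35.6% and 12.2%. At an unadjusted p under 0.05 in limma, 0 were higher as well, against 14.8% of all elements. In Δ*gcn4*, 25 were lower and 1 was higher, against 38.7% and 15.8%. In Δ*gcn2*, 27 were lower and 1 was higher, against 37.8% and 25.2%. The 1 gene that rose was *RPO21*, which encodes the largest subunit of Pol II, in WT, Δ*gcn4*, and Δ*gcn2* alike. The lower genes included 23 that were called in all 4 strains, against 19.3% of all elements. The other 7 were *RPA14*, *RPO21*, *RPB2*, *RPB3*, *RPB4*, *RET1*, and *RPC53*. The median over the 30 genes was −0.83 for WT, −0.68 for Δ*ire1*, −0.75 for Δ*gcn4*, and −0.90 for Δ*gcn2*, where the medians of all elements were −0.15, −0.14, −0.16, and −0.11. With every array centered on its own median, 5 of the calls on single genes were lost, for *RPO31* in WT (adjusted p = 0.0516) and Δ*gcn4*, *RPB4* and *RPC53* in Δ*gcn4*, and *RPB3* in Δ*gcn2*.

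**Figure D1:**
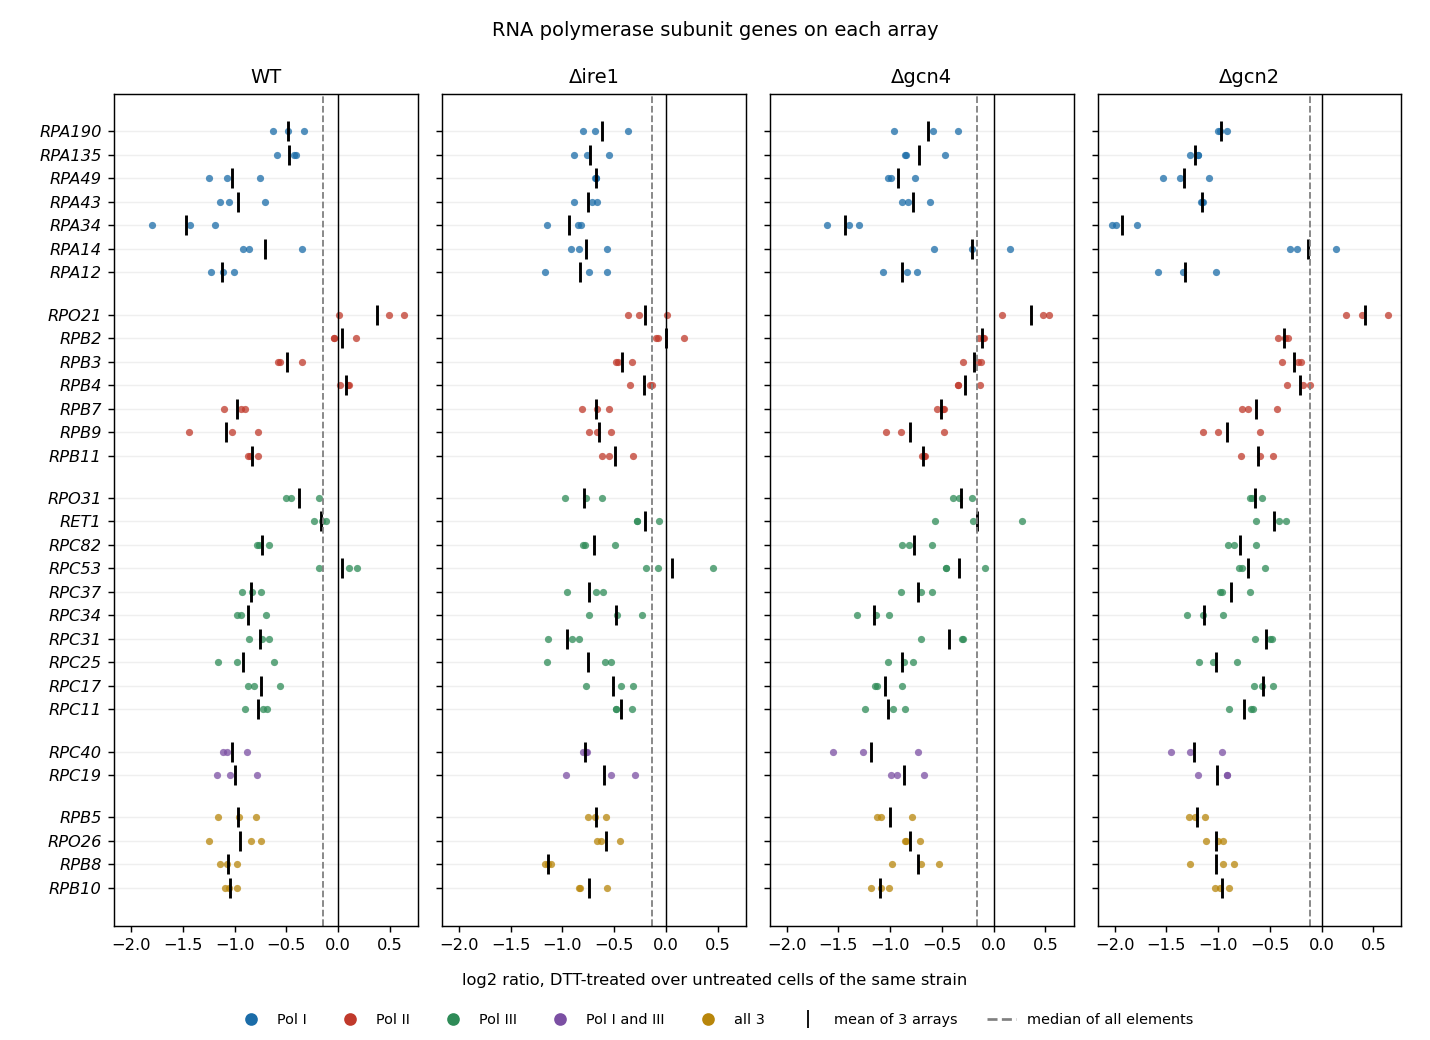
Log2 ratio after DTT treatment (x axis, treated over untreated) for each of the 30 measured subunit genes (y axis) in the 4 strains. Points are single arrays colored by enzyme, black bars are means of 3 arrays, and the dashed line is the median of all 6024 elements. Most genes lie left of the dashed line in every strain, and *RPO21* lies right of it on all arrays of WT, Δ*gcn4*, and Δ*gcn2*.

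The members differed among themselves by more than the arrays of a gene did in the median. The SD over the 30 means was 0.43 for WT, 0.27 for Δ*ire1*, 0.39 for Δ*gcn4*, and 0.45 for Δ*gcn2*, whereas the median SD of a gene over its 3 arrays was 0.14, 0.16, 0.16, and 0.14. The largest SD of a gene was 0.338, 0.347, 0.419, and 0.285, which in Δ*ire1* and Δ*gcn4* exceeded the SD over the means. On all 3 arrays of a strain, 26 of the 30 genes were below 0 for WT, 27 for Δ*ire1*, 27 for Δ*gcn4*, and 28 for Δ*gcn2*, against 47.3%, 44.9%, 48.1%, and 47.8% of all elements. A mean below −1 was reached by 7 genes for WT, 1 for Δ*ire1*, 7 for Δ*gcn4*, and 12 for Δ*gcn2*. Of these genes, the one nearest −1 was *RPC40* in WT, *RPB8* in Δ*ire1*, *RPB5* in Δ*gcn4*, and *RPC19* in Δ*gcn2*. They ranked 364th, 95th, 286th, and 436th from the lowest of all 6024 elements, at means of −1.021, −1.141, −1.001, and −1.008. As these means are not alike, the ranks are not counts of the elements below −1. In Δ*ire1* the rank of *RPC31*, at −0.96, was 209th. Fewer of all elements were thus below −1 in Δ*ire1* than in the other strains. The means of the members were correlated between strains to different degrees. Over the 30 genes, which are not independent replicates, Pearson's r between strain means ran from 0.52 for Δ*ire1* and Δ*gcn4* to 0.86 for Δ*gcn4* and Δ*gcn2*. Over all elements the r of these pairs was 0.55 and 0.88, and the other 4 pairs of strains lay between them on both counts.

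By enzyme, the Pol II genes had the least negative mean in each strain. The mean over the 7 Pol I genes was −0.89 ± 0.12 for WT, −0.76 ± 0.096 for Δ*ire1*, −0.80 ± 0.12 for Δ*gcn4*, and −1.15 ± 0.10 for Δ*gcn2* (SD, n = 3 arrays). Over the 7 Pol II genes it was −0.41 ± 0.15, −0.38 ± 0.062, −0.32 ± 0.068, and −0.37 ± 0.10. Over the 10 Pol III genes it was −0.62 ± 0.10, −0.55 ± 0.080, −0.69 ± 0.089, and −0.75 ± 0.076. In each strain the 3 array means of Pol I lay below all 3 of Pol II, without overlap. The means for the 4 genes common to all enzymes were −1.01 ± 0.13, −0.79 ± 0.040, −0.91 ± 0.020, and −1.06 ± 0.071. Those for the pair shared by Pol I and Pol III were −1.01 ± 0.16, −0.69 ± 0.17, −1.03 ± 0.17, and −1.12 ± 0.16. Both groups of shared subunits thus lay below Pol III and Pol II in every strain, and differences between groups of genes were not tested. With the arrays centered on their medians the order of Pol I, Pol III, and Pol II was the same in each strain, with −0.75, −0.47, and −0.27 on the WT arrays.

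**Figure D2:**
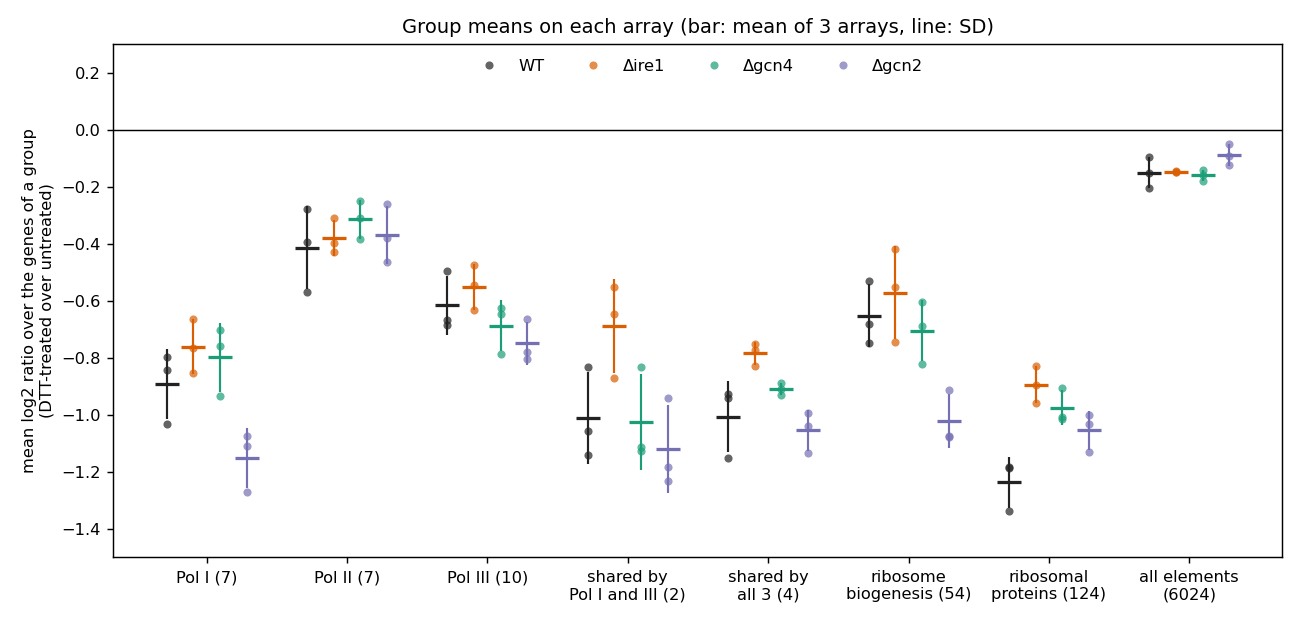
Mean log2 ratio over the genes of a group (y axis) for the 5 groups of subunit genes, the genes of ribosome biogenesis, those of cytosolic ribosomal proteins, and all elements (x axis, number of elements in parentheses). Points are single arrays, bars the mean of 3 arrays, and lines the SD. The 3 arrays of Pol I in Δ*gcn2*, with a mean of −1.15, lie below those of the other strains, and Pol II lies above Pol I in each strain.

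All 7 Pol I genes fell in WT and in Δ*ire1*, against 39.0% and 35.6% of all elements. In Δ*gcn4* and Δ*gcn2* 6 of 7 fell, against 38.7% and 37.8%. *RPA34* (YJL148W), whose product pairs with that of *RPA49* in a module related to the Pol II factor TFIIF, was the lowest. It stood at −1.19, −1.43, and −1.80 on the WT arrays, −0.82, −0.85, and −1.15 on the Δ*ire1* arrays, −1.30, −1.40, and −1.61 on the Δ*gcn4* arrays, and −1.78, −1.99, and −2.03 on the Δ*gcn2* arrays. Every array of Δ*ire1* was above every array of WT, and the arrays of Δ*gcn2* were the lowest, with a small overlap with WT. The means correspond to 36.1% of the untreated level for WT, 52.1% for Δ*ire1*, 37.0% for Δ*gcn4*, and 26.2% for Δ*gcn2*, and in Δ*gcn2* *RPA34* was the 20th lowest of the 6024 elements. *RPA49* itself stood at −1.02 ± 0.25 for WT and −1.33 ± 0.22 for Δ*gcn2* (SD, n = 3 arrays), and it was above *RPA34* on all 12 arrays.

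*RPA135* (YPR010C), which encodes the second subunit of Pol I, had the least negative mean of the Pol I genes in WT. It stood at −0.42, −0.41, and −0.59 on the WT arrays, −0.89, −0.55, and −0.76 on the Δ*ire1* arrays, −0.48, −0.86, and −0.84 on the Δ*gcn4* arrays, and −1.20, −1.20, and −1.27 on the Δ*gcn2* arrays. All 3 arrays of Δ*gcn2* were below the 9 arrays of the other strains. *RPA190*, which encodes the largest subunit, was similar to it in WT at −0.48 ± 0.15 and stood at −0.62 ± 0.22 for Δ*ire1*, −0.63 ± 0.31 for Δ*gcn4*, and −0.97 ± 0.045 for Δ*gcn2*. *RPA12*, which encodes the subunit for RNA cleavage, went from −1.12 ± 0.11 for WT to −1.32 ± 0.28 for Δ*gcn2*, and *RPA43*, of the stalk, from −0.97 ± 0.23 to −1.16 ± 0.012. *RPA14*, the partner of *RPA43* in the stalk, was the exception of the group. It stood at −0.71 ± 0.31 for WT and −0.78 ± 0.18 for Δ*ire1*, where it fell, and at −0.21 ± 0.37 for Δ*gcn4* and −0.13 ± 0.24 for Δ*gcn2*, where it missed the threshold (adjusted p = 0.23 and 0.43). Its arrays stood at −0.92, −0.35, and −0.86 for WT and at −0.24, 0.14, and −0.30 for Δ*gcn2*, all of the latter above the former. *RPA14* is the only member whose gene overlaps another in the RefSeq annotation, *YDR157W*. Whether its element also measures that gene was not tested.

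Among the 7 Pol II genes, 4 fell in WT, Δ*ire1*, and Δ*gcn4*, and 5 fell in Δ*gcn2*. The shares of all elements that fell were 39.0%, 35.6%, and 38.7% in the first 3 strains and 37.8% in Δ*gcn2*. *RPO21* (YDL140C) was the highest in WT, Δ*gcn4*, and Δ*gcn2*, and in Δ*ire1* *RPB2* was. *RPO21* stood at 0.49, 0.64, and 0.00 on the WT arrays, −0.37, −0.26, and 0.01 on the Δ*ire1* arrays, 0.08, 0.53, and 0.48 on the Δ*gcn4* arrays, and 0.39, 0.64, and 0.24 on the Δ*gcn2* arrays. The arrays of WT, Δ*gcn4*, and Δ*gcn2* overlapped, and those of Δ*ire1* lay below them except that its array 3 passed array 3 of WT. The means correspond to 1.30-fold, 0.867-fold, 1.29-fold, and 1.34-fold the untreated level, with adjusted p = 0.021, 0.21, 0.027, and 0.010. The rise rests on few arrays in each strain, since the call was lost without WT replicate 1 (adjusted p = 0.118) or 2 (0.195), without Δ*gcn4* replicate 2 (0.169) or 3 (0.146), and without Δ*gcn2* replicate 2 (0.109). *RPB9*, which encodes a small zinc-binding subunit with a role in start site choice and fidelity, was the lowest of the group in WT. It stood at −1.02, −0.77, and −1.44 on the WT arrays, −0.74, −0.67, and −0.53 on the Δ*ire1* arrays, −1.04, −0.48, and −0.89 on the Δ*gcn4* arrays, and −1.0, −0.59, and −1.14 on the Δ*gcn2* arrays. It fell in each strain, and only Δ*ire1* had all its arrays above those of WT.

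The other Pol II genes split into those that fell and those near 0. *RPB7*, which encodes the larger stalk subunit, stood at −0.98 ± 0.11 for WT and −0.51 ± 0.035 for Δ*gcn4*, and *RPB11*, of the assembly platform, at −0.83 ± 0.054 and −0.68 ± 0.015. Both fell in all strains. *RPB4*, whose product forms the stalk with Rpb7p and can leave the enzyme, stood at 0.07 ± 0.045 for WT, −0.21 ± 0.12 for Δ*ire1*, −0.27 ± 0.13 for Δ*gcn4*, and −0.21 ± 0.11 for Δ*gcn2*. It passed the test in Δ*gcn4*, a call lost with centered arrays, and missed it in the other strains, which does not show that the strains differed. *RPB3*, also of the platform, fell in WT to −0.50 ± 0.13 and stood at −0.19 ± 0.091 for Δ*gcn4*, short of the threshold (adjusted p = 0.084). *RPB2*, which encodes the second subunit, stood at −0.04, 0.18, and −0.04 on the WT arrays, −0.10, 0.17, and −0.08 on the Δ*ire1* arrays, −0.09, −0.10, and −0.14 on the Δ*gcn4* arrays, and −0.32, −0.36, and −0.42 on the Δ*gcn2* arrays. Its arrays in Δ*gcn2* were all below those of the other strains, and Δ*gcn2* was the strain in which it fell, a call lost with arrays centered and scaled (adjusted p = 0.0601).

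Of the 10 Pol III genes, 8 fell in WT and in Δ*ire1*. In Δ*gcn4* 9 of them fell, and in Δ*gcn2* all 10. Between 35.6% and 39.0% of all elements fell in a strain. *RPC25*, which encodes the larger stalk subunit, was the lowest in WT. It stood at −0.62, −1.17, and −0.98 on the WT arrays, −0.53, −0.59, and −1.15 on the Δ*ire1* arrays, −1.02, −0.78, and −0.86 on the Δ*gcn4* arrays, and −0.82, −1.18, and −1.05 on the Δ*gcn2* arrays. Its arrays overlapped between all strains. *RPC53* (YDL150W) was the highest in WT and Δ*ire1*, and *RET1* was in Δ*gcn4* and Δ*gcn2*. The product of *RPC53* forms, with that of *RPC37*, the TFIIF-like pair of Pol III that acts in termination and reinitiation. *RPC53* stood at 0.18, −0.18, and 0.11 on the WT arrays, −0.08, 0.46, and −0.19 on the Δ*ire1* arrays, −0.09, −0.47, and −0.46 on the Δ*gcn4* arrays, and −0.80, −0.77, and −0.55 on the Δ*gcn2* arrays. The arrays of Δ*gcn2* were below all those of WT, Δ*ire1*, and Δ*gcn4*. *RPC37*, in contrast, stood between −0.73 and −0.88 in the 4 strains and was below *RPC53* on 11 of 12 arrays.

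*RPO31* (YOR116C), which encodes the largest subunit of Pol III, stood at −0.19, −0.50, and −0.45 on the WT arrays, −0.77, −0.62, and −0.98 on the Δ*ire1* arrays, −0.21, −0.33, and −0.39 on the Δ*gcn4* arrays, and −0.58, −0.69, and −0.67 on the Δ*gcn2* arrays. The arrays of Δ*ire1* and of Δ*gcn2* were all below those of WT. *RET1*, which encodes the second subunit, stood at −0.17 ± 0.060 for WT, −0.21 ± 0.12 for Δ*ire1*, −0.17 ± 0.42 for Δ*gcn4*, and −0.46 ± 0.15 for Δ*gcn2* (SD, n = 3 arrays), and it fell in Δ*gcn2*, a call lost without Δ*gcn2* replicate 2 (adjusted p = 0.0517). The 3 genes of the Pol III trimer that acts in initiation, *RPC82*, *RPC34*, and *RPC31*, fell in all strains. *RPC82* was even, between −0.69 and −0.79. *RPC34*, whose product contacts the initiation factor Brf1p, was lowest in Δ*gcn4* at −1.16 ± 0.16 and highest in Δ*ire1* at −0.48 ± 0.26. *RPC31* had the opposite order, with −0.96 ± 0.16 for Δ*ire1* and −0.43 ± 0.23 for Δ*gcn4*. *RPC17*, of the stalk, and *RPC11*, for RNA cleavage, were also lowest in Δ*gcn4*, at −1.05 ± 0.15 and −1.03 ± 0.20. Differences between the deletion strains were not tested.

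All 6 measured genes of shared subunits fell in each strain, against 35.6% to 39.0% of all elements. *RPC40* and *RPC19*, encode the assembly platform of both Pol I and Pol III. *RPC40* stood at −0.88, −1.07, and −1.11 on the WT arrays, −0.81, −0.76, and −0.78 on the Δ*ire1* arrays, −1.56, −0.73, and −1.26 on the Δ*gcn4* arrays, and −0.97, −1.45, and −1.27 on the Δ*gcn2* arrays. *RPC19* stood at −0.78, −1.04, and −1.17 on the WT arrays, −0.30, −0.53, and −0.97 on the Δ*ire1* arrays, −0.67, −0.93, and −0.99 on the Δ*gcn4* arrays, and −0.92, −0.91, and −1.19 on the Δ*gcn2* arrays. For *RPC40* all arrays of Δ*ire1* were above those of WT, and for *RPC19* the strains overlapped. Of the genes common to all 3 enzymes, *RPB8* was the lowest in WT. It stood at −0.98, −1.08, and −1.14 on the WT arrays, −1.17, −1.14, and −1.11 on the Δ*ire1* arrays, −0.98, −0.53, and −0.70 on the Δ*gcn4* arrays, and −0.85, −0.95, and −1.27 on the Δ*gcn2* arrays. *RPO26*, which encodes the common subunit Rpb6p, was the highest in WT and stood at −0.84, −0.75, and −1.25 on the WT arrays, −0.67, −0.45, and −0.63 on the Δ*ire1* arrays, −0.86, −0.84, and −0.72 on the Δ*gcn4* arrays, and −1.11, −0.95, and −1.01 on the Δ*gcn2* arrays. *RPB8* was the lowest of all 30 members in Δ*ire1*, whereas *RPO26* in Δ*ire1* was above all its WT arrays. *RPB5* and *RPB10* fell to between −0.67 and −1.21 in the 4 strains.

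Genes for subunits at corresponding positions of the 3 enzymes were compared array by array. Among the largest subunits, *RPO21* was above *RPA190* on all 12 arrays, by 0.92 on average, and above *RPO31* on all 12, by 0.77. Among the second subunits, *RPB2* was above *RPA135* on all 12 arrays, by 0.68, and so was *RET1*, by 0.54, while *RPB2* was above *RET1* on 9. The platform gene *RPB3* of Pol II was above its counterpart *RPC40* of Pol I and Pol III on all 12 arrays, and *RPB11* was above *RPC19* on 10. In the stalk, *RPB4* was above *RPC17* on all 12 arrays and above *RPA14* on 9, and *RPB7* was above *RPA43* on 9 and above *RPC25* on 8. Among the zinc-binding subunits, *RPB9* was above *RPA12* on 9 arrays and above *RPC11* on 4. The pairs were read after the values were known, arrays of one strain are not separate strains, and these counts are descriptions with no test.

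**Figure D3:**
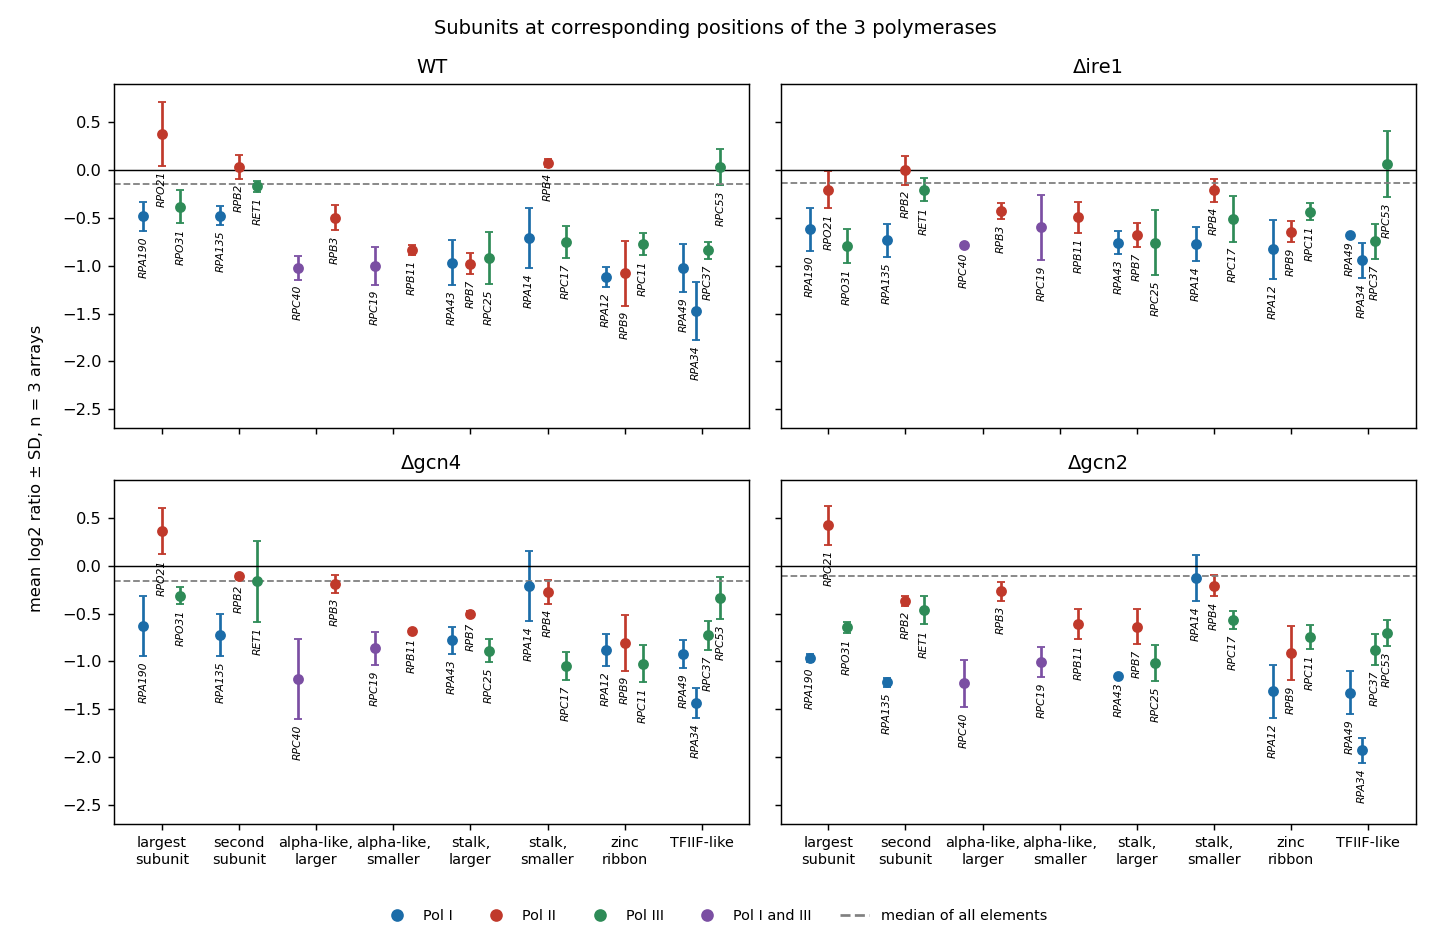
Mean log2 ratio ± SD over 3 arrays (y axis) of the genes for subunits at corresponding positions of the polymerases (x axis), in the 4 strains, colored by enzyme. The dashed line is the median of all elements. In each strain Pol II genes are the highest at the largest subunit, the second subunit, and both platform positions, and *RPC53* stands apart from the other TFIIF-like genes except in Δ*gcn2*.

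The comparison of Δ*ire1* with WT asks whether the response of a gene to DTT depends on the sensor of the UPR. In this comparison 1 member was higher and 2 were lower, against 10.9% and 11.3% of all elements. At this threshold the shares of the members were thus no greater than those of all elements. At an unadjusted p under 0.05 in limma, 11 of the 30 were higher and 3 lower, against 1124 and 1043 of the 6024 elements. *RPA34* fell less in Δ*ire1* than in WT, with a difference of 0.53 (standard error 0.17, adjusted p = 0.031). *RPO21* differed the other way, by −0.58 (standard error 0.18, adjusted p = 0.033), and *RPO31* by −0.41 (standard error 0.14, adjusted p = 0.043). Each of these calls depends on single arrays. With 1 array left out, the adjusted p reached 0.138 for *RPA34* (without WT replicate 3), 0.135 for *RPO21* (without WT replicate 2), and 0.158 for *RPO31* (without WT replicate 1), and with only the arrays of both strains in the fit it was 0.0703, 0.0565, and 0.109. The median difference over the 30 genes was 0.19, against 0.03 for all elements, and 20 of the 30 had a lower mean in WT. The difference was below 0 for 10 of the 30 genes, against 2826 of the 6024 elements. The counts by group that fell were equal in Δ*ire1* and WT, with 7 and 7 of Pol I, 4 and 4 of Pol II, and 8 and 8 of Pol III. Of all elements, 35.6% fell in Δ*ire1* and 39.0% in WT.

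In Δ*gcn4*, 0 members passed the test for a higher and 0 for a lower response than in WT (limma), against 0.863% and 1.94% of all elements. At an unadjusted p under 0.05, 5 were higher and 1 was lower, against 7.87% and 7.95% of all elements, and the alternatives gave 0 calls as well. The smallest adjusted p was that of *RPB7*, 0.075, with a difference of 0.47 (standard error 0.13) and all 3 arrays of Δ*gcn4* above those of WT. The median difference over the 30 genes was 0.04, against 0.01 for all elements. The 95% intervals of single genes were wide. For *RPO21* the interval of the difference ran from −0.41 to 0.38, for *RPA34* from −0.31 to 0.39, and for *RPC53* from −0.75 to 0.00, so these data do not show that the strains responded alike.

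In Δ*gcn2*, 3 members were lower than in WT and 0 were higher, against 6.24% and 10.9% of all elements. At an unadjusted p under 0.05 in limma, 6 were lower and 2 higher, against 12.3% and 20.3% of all elements. *RPA135* had a difference of −0.75 (standard error 0.14, adjusted p = 0.0036), *RPC53* of −0.74 (standard error 0.18, adjusted p = 0.012), and *RPB2* of −0.40 (standard error 0.13, adjusted p = 0.042). They come from Pol I, Pol III, and Pol II in turn, and 2 of them encode second subunits. The call of *RPC53* was lost without WT replicate 1 (adjusted p = 0.0576), and that of *RPB2* without any 1 array of WT or Δ*gcn2* (adjusted p up to 0.13) or without Δ*gcn4* replicate 2 or 3. *RPA190* (−0.49, adjusted p = 0.054), *RPA34* (−0.46, adjusted p = 0.066), and *RPA14* (0.58, adjusted p = 0.059) missed the threshold. Same-numbered WT and Δ*gcn2* arrays varied together over all elements, and with the replicate number as a block 1 member was higher and 5 were lower in Δ*gcn2*, against 12.6% and 7.57% of all elements in the same fit. In that paired fit *RPA190* (adjusted p = 0.0272), *RPA34* (0.0184), and *RPA14* (0.0272) passed. With only the arrays of WT and Δ*gcn2* in the paired fit, an alternative added after the data were seen, 2 were higher and 11 lower, against 30.5% and 19.8% of all elements. For the members that it added to the calls, the adjusted p (limma) followed the size of the difference, whatever the spread of their arrays. It ran from 0.0458 for *RPB5*, at −0.239, to 3.13e-07 for *RPA14*, at 0.577. These added calls thus act as a cutoff on the difference.

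For Pol I, the median difference between Δ*gcn2* and WT was −0.31, against 0.06 for all elements. For Pol II it was 0.17 and for Pol III −0.08. Of the Pol I genes, 6 of 7 had a difference below 0, against 2549 of the 6024 elements. The genes of ribosome biogenesis, 54 with symbols of the UTP, NOP, RRP, and NOC series whose products make and assemble ribosomal subunits, stood at a median of −0.39 in this comparison. Their median response was −0.60 for WT, −0.55 for Δ*ire1*, −0.70 for Δ*gcn4*, and −1.04 for Δ*gcn2*. The 124 elements of cytosolic ribosomal proteins were at −1.25, −0.90, −0.98, and −1.04, and their median difference between Δ*gcn2* and WT was 0.19. The Pol I genes, like those of ribosome biogenesis, were thus lower in median in Δ*gcn2* than in WT, and the ribosomal protein genes were higher. These are medians beside each other, and no test was made of the lists.

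**Figure D4:**
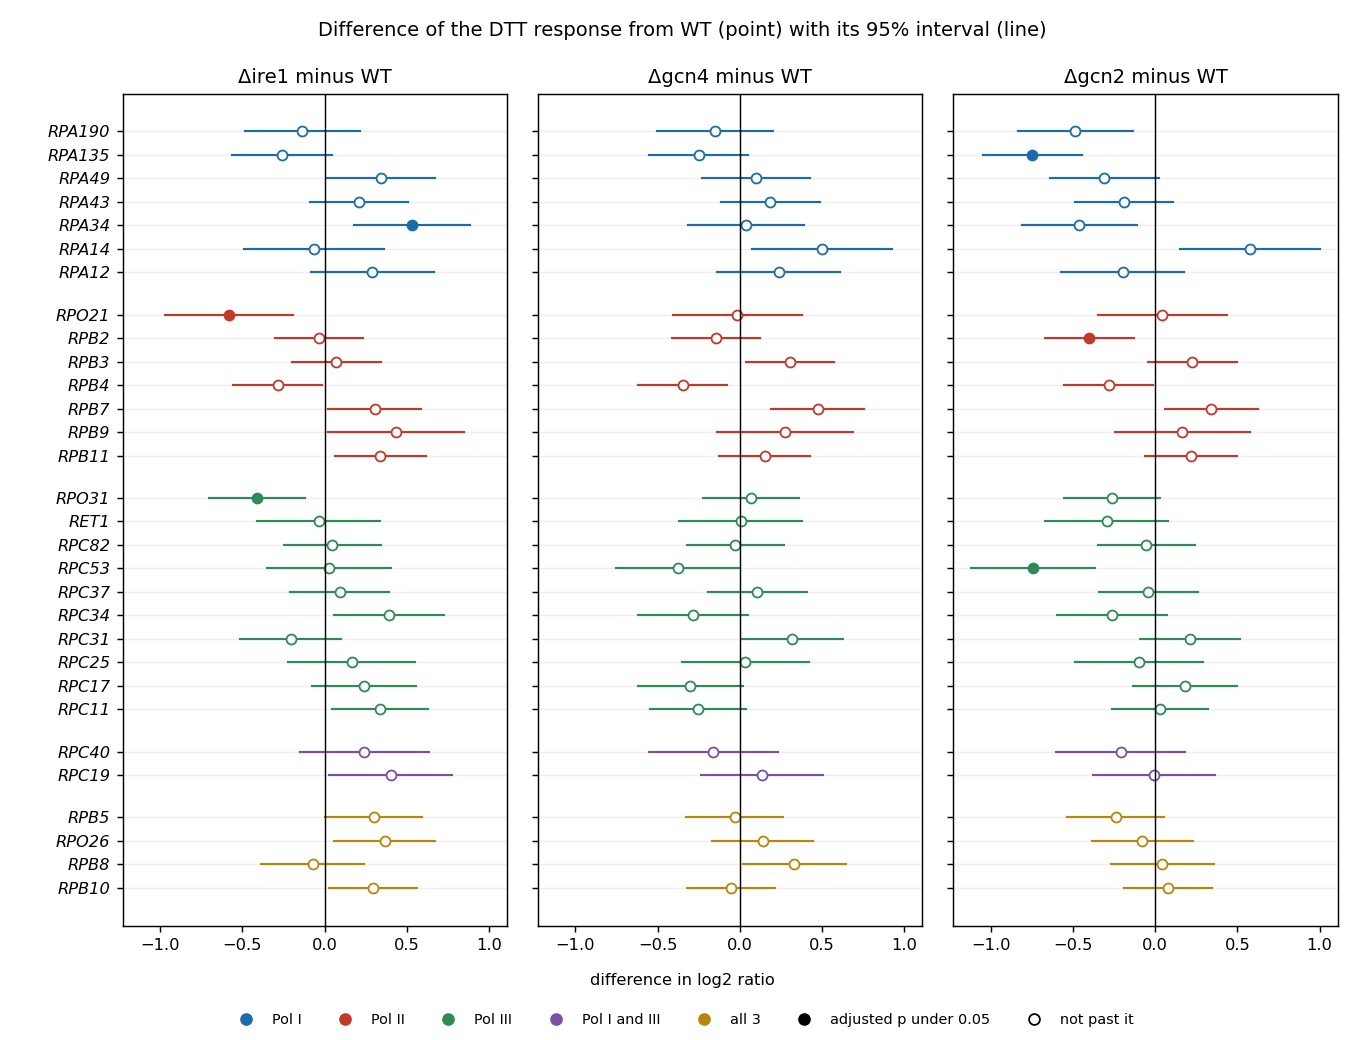
Difference in log2 ratio between each deletion strain and WT (x axis) for the 30 subunit genes (y axis). Points are the differences, lines their 95% intervals from limma, and filled points have an adjusted p under 0.05. The filled points are *RPA34*, *RPO21*, and *RPO31* for Δ*ire1* and *RPA135*, *RPB2*, and *RPC53* for Δ*gcn2*, and the *RPA14* interval for Δ*gcn2* lies above 0 although its adjusted p was 0.059. All 3 panels use the same WT arrays.

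Genes for factors that work with the polymerases are given for comparison. Their counts are to be read beside the 39.0% of all elements that fell and the 18.4% that rose in WT. Of the 8 genes of Pol I initiation factors, 4 fell in WT, with a median of −0.21. The lowest was *UAF30*, of the upstream activating factor, at −0.92 ± 0.29 (SD, n = 3 arrays), and the highest *RRN6*, of core factor, at 0.11 ± 0.037. Of the 9 genes of Pol III initiation factors and the repressor *MAF1*, 1 fell and 3 rose in WT, with a median of 0.22. *BRF1*, of TFIIIB, was the lowest at −0.26 ± 0.080, and *TFC6*, of TFIIIC, the highest at 0.78 ± 0.41. The Pol III subunit genes thus had a median of −0.75 for WT beside 0.22 for the factors of the same enzyme.

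For Pol II, 4 of 18 genes of general factors fell and 2 rose in WT, with a median of −0.01. The lowest was *SPT15*, which encodes the TATA-binding protein used by all 3 polymerases, at −0.82 ± 0.19, and the highest *SUA7*, which encodes TFIIB, at 0.46 ± 0.15. Of 8 elongation and C-terminal domain factors, 3 fell and 2 rose, from *RTR1* at −0.38 ± 0.37 to *SPT5* at 0.78 ± 0.099. Of 25 Mediator elements, 7 fell and 5 rose, from *SRB7* at −0.52 ± 0.042 to *MED11* at 0.70 ± 0.10. The shares of these lists that fell and rose are to be read beside the 39.0% and 18.4% of all elements in WT. Of 7 factors for polymerase assembly and import, 4 fell in WT, from *RBA50* at −0.44 ± 0.13 to *IWR1* at 0.04 ± 0.15.

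The subunit genes differ widely in length, and in WT the long ones had less negative values. With gene lengths from the RefSeq annotation, the 11 members under 600 bases had a median of −0.98 for WT, the 12 from 600 to under 1500 bases −0.90, and the 6 of 3000 bases and over −0.28, and *RPC82*, the 1 member between, stood at −0.74. The 6 are the genes of the largest and second subunits of the 3 enzymes. The medians of all elements in the same classes were −0.41, −0.22, and 0.05, and −0.01 in the class of *RPC82*. The median of the members thus lay below that of all elements in each class. Single members did not, as *RPO21* at 0.38, *RPB4* at 0.07, and *RPC53* at 0.04 were above the medians of their classes. Spearman's rho of length and log2 ratio over the 30 members was 0.59 for WT, 0.20 for Δ*ire1*, 0.44 for Δ*gcn4*, and 0.08 for Δ*gcn2*, and 0.32, 0.19, 0.22, and 0.11 over 5427 elements with a length. Length was looked at after the values were known, genes of one array share its hybridization, and the part of length in the responses was not tested.

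**Figure D5:**
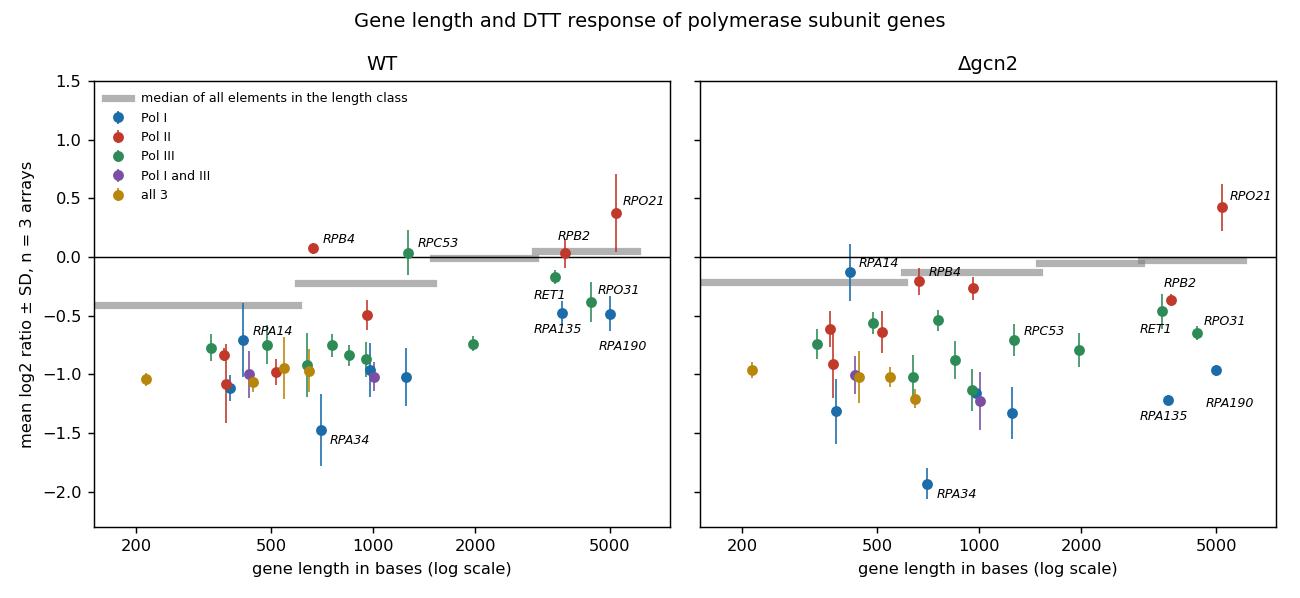
Mean log2 ratio ± SD over 3 arrays (y axis) against gene length in bases (x axis, log scale) for the 30 subunit genes in WT and Δ*gcn2*, colored by enzyme. Grey bars are the medians of all elements in 4 length classes. In WT the 6 longest genes have a median of −0.28 and the 11 shortest −0.98, and in Δ*gcn2* these medians are −0.55 and −0.91.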

How the data were processed

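Messenger RNA was purified from total RNA, and 2-color spotted ORF arrays compared DTT-treated with untreated cells of the same strain, on 3 arrays for each of 4 strains. The authors deposited log2 ratios of treated over untreated, 6024 elements on 12 arrays with 0 missing values. The normalization within arrays is not given in the sources used here, so the deposited values were used without centering. They hold no signals of the separate channels, and precision is limited by the number of arrays. The study's methods call the measurements independent experiments. WT replicate 1 carries no number in its label and was numbered by elimination.

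Elements were named through the probe annotation, which gave a symbol for 5432 elements. Gene lengths, overlaps, and synonyms came from RefSeq. Overlaps were found by comparing the RefSeq gene coordinates, and no coordinates are printed because no build is named. Linear models with a mean for each strain were fitted to all 12 arrays with limma 3.58.1 (R 4.3.3) with moderated variances (15.5 degrees of freedom), after a test on simulated data. Two-sided p was adjusted over all 6024 elements (Benjamini-Hochberg, threshold 0.05). Each strain was tested against 0 and each deletion strain against WT, and these differences share the WT arrays. Lists are described by counts and medians without a test.

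The members and the lists were chosen with earlier results of these data known. Values on every array are given for the lowest and highest gene of each group in WT, for genes whose difference from WT passed, for genes called against the common direction, and of *RPA14* for WT and Δ*gcn2*. Each other list is named by its lowest and highest gene in WT. The *RPP1* gene, of ribonuclease P, was left out of the ribosomal proteins. *TFB5*, *SPT6*, and *NUT2* of the lists were not analysed here, and *SRB8* has 2 elements. The same-numbered arrays of WT and Δ*gcn2* correlated in their deviations from the strain means (0.574, 0.625, and 0.661), so the paired fit is given beside that comparison. Arrays of other numbers gave at most −0.198. This adds no separate support, because the deviations within a strain sum to 0 over its arrays. The alternatives were centering, centering with scaling, array weights, a replicate block, only the strains compared, robust moderation, a threshold of 0.01, and leaving out each array.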

Additional observations from a re-analysis of the deposited data

Results flagged for a closer look

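A difference between strains in the response to DTT passed the test for 6 comparisons of single genes. In Δ*ire1* compared with WT these were *RPA34*, with a difference of 0.531, *RPO21*, with −0.584, and *RPO31*, with −0.41. In Δ*gcn2* compared with WT they were *RPA135*, with −0.747, *RPC53*, with −0.743, and *RPB2*, with −0.399. Each is the difference of 2 strain means of 3 arrays on the log2 scale and was tested with limma.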

How the results depend on the processing

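No member changed the direction of a called value under any of the alternatives. In the main fit, 10.9% of all elements were higher and 11.3% lower for Δ*ire1* against WT. For Δ*gcn2* against WT these shares were 10.9% and 6.24%. Where no share of the same fit is given, a count is not read as a result about the members. Counts of members called that moved by over 1.5 times were as follows. Centering with scaling gave 0 higher and 1 lower for Δ*ire1* against WT. Array weights gave 2 higher for Δ*ire1* against WT, and 2 higher and 5 lower for Δ*gcn2* against WT. The replicate block gave 2 higher for Δ*ire1* against WT, and 1 higher and 5 lower for Δ*gcn2* against WT. For Δ*gcn2* the shares of all elements in that fit were 12.6% and 7.57%. Only the strains compared gave 0 higher and 0 lower for Δ*ire1* against WT, and 1 higher for Δ*gcn2* against WT. The threshold of 0.01 gave 0 higher in WT, Δ*gcn4*, and Δ*gcn2*, 0 higher and 0 lower for Δ*ire1* against WT, and 1 lower for Δ*gcn2* against WT. Of the alternatives added after the data were seen, WT and Δ*gcn2* arrays alone with a replicate block gave 2 higher and 11 lower for Δ*gcn2* against WT. In that fit 30.5% of all elements were higher and 19.8% lower. Centering with a replicate block gave 3 higher for Δ*ire1* against WT and 1 higher and 5 lower for Δ*gcn2* against WT.

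With each array left out in turn, the count higher ranged from 0 to 1 in WT, Δ*gcn4*, and Δ*gcn2*. It ranged from 0 to 3 higher and 0 to 2 lower for Δ*ire1* against WT, and from 0 to 1 higher and 1 to 5 lower for Δ*gcn2* against WT. The shares of all elements in the main fit were 10.9% and 11.3% for Δ*ire1* and 10.9% and 6.24% for Δ*gcn2*. The call of *RPA135* in Δ*gcn2* against WT held in all of them. The cause of these changes was not tested, other than that fewer arrays enter a fit when some are left out. The other strains' same-numbered arrays did not vary together throughout, and there the replicate block is an alternative only. Without signals of the separate channels, dim spots could not be told from bright ones.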

Other observations

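Among the initiation factors, *RRN9*, which encodes a subunit of the upstream activating factor of Pol I, had a larger difference between Δ*gcn2* and WT than any of the 30 subunit genes. It was chosen after its values were seen. It stood at −0.22, −0.40, and 0.17 on the WT arrays, 0.26, 0.59, and 0.06 on the Δ*ire1* arrays, −0.96, −1.20, and −1.32 on the Δ*gcn4* arrays, and −1.93, −2.05, and −1.52 on the Δ*gcn2* arrays. All arrays of Δ*gcn4* and Δ*gcn2* were below all arrays of WT and Δ*ire1*, and the arrays of Δ*gcn2* were below those of Δ*gcn4*. The difference from WT was −1.01 for Δ*gcn4* (standard error 0.19, adjusted p = 0.0059 in limma) and −1.69 for Δ*gcn2* (standard error 0.19, adjusted p = 0.00015).

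*SSL1*, of TFIIH, and *MED4*, of Mediator, were also chosen after their values were seen. *SSL1* stood at −0.09 ± 0.077 for WT, −0.49 ± 0.14 for Δ*ire1*, −0.91 ± 0.12 for Δ*gcn4*, and −0.69 ± 0.077 for Δ*gcn2* (SD, n = 3 arrays). *MED4* stood at 0.21 ± 0.16, −0.18 ± 0.10, −0.96 ± 0.11, and −0.16 ± 0.052, and it passed the test for a fall in Δ*gcn4* and in no other strain.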
